A study of Mus musculus with 13 samples.

Results

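Large duct-like biliary epithelial cells (BEC) were followed through mouse liver during cholestatic injury and recovery. Members were chosen by their own UMIs (unique molecular identifiers, each counting 1 captured RNA molecule): at least 1500 UMIs in all, at least 2 of Epcam, at least 2 of Krt7 and Krt19 together, at least 3 of Dmbt1 and Muc4 together, and none of Ptprc. This rule kept 1063 of 95563 cells. Without the condition on Dmbt1 and Muc4 it kept 3848 cells, called gated BEC here, so that large duct-like cells made up 27.6% of them. Another 133 gated BEC held 1 or 2 UMIs of Dmbt1 and Muc4. The remaining 2652 held none, and these Dmbt1- Muc4- BEC served as the comparison.

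The study sequenced single liver cells of young adult male C57BL/6J mice by 3′ scRNA-seq in droplets (10x Genomics). The atlas mice received 3,5-diethoxycarbonyl-1,4-dihydrocollidine (DDC), a porphyrinogenic agent that injures bile ducts, at 0.1% of the chow for 3, 5, 9, 19 or 25 days, or no DDC (D0), and each day has 1 library of isolation protocol A and 1 of protocol B. The label of D19 B gives day 18 in 1 field, and the study counts it as day 19. In the STOP library, of protocol B, mice received the diet for 18 days and then recovered for 7 days. All mice were wild type, and a library is named here by its day and protocol, as in D9 A. Both protocols mixed sorted fractions that included Epcam+ cells, so the share of BEC among all cells reflects sorting. The labels do not say which mice went into which library, so a library need not be an independent animal, and SDs and tests measure the spread between libraries only.

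BEC line the bile ducts and are not uniform along the biliary tree. In small ductules they are cuboidal and express the progenitor-associated factor Sox9 and osteopontin (Spp1), whereas towards the hilum they become columnar, secrete mucins and modify bile through bicarbonate and water transport. Dmbt1 is a secreted scavenger glycoprotein of mucosal surfaces, Muc4 a membrane mucin, Sox17 a transcription factor needed for the development of the gallbladder and the extrahepatic ducts, and Aqp8 a water channel. DDC causes cholangitis in which small ducts proliferate, the ductular reaction.

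Large duct-like cells were unevenly spread over libraries. D9 A held 353 and D25 A 422 of them, and the numbers in the other libraries were 60 in D0 A, 22 in D3 B, 21 in D5 B, 38 in D9 B, 55 in D19 B, 57 in D25 B and 29 in STOP. D0 B, D3 A, D5 A and D19 A held 0, 2, 1 and 3, under the minimum of 10, and entered no comparison. Their share of gated BEC was 10.3% in D0 A (exact binomial 95% interval 7.93 to 13.0), 25.9% in D3 B, 9.50% in D5 B, 47.6% in D9 A (44.0 to 51.3), 26.6% in D9 B, 17.2% in D19 B, 38.5% in D25 A (35.6 to 41.5), 18.6% in D25 B and 10.3% in STOP (7.00 to 14.4). At D9 and at D25 the share was higher in protocol A than in protocol B, with separate intervals. Of the 4 libraries under the minimum, D19 A held 55 gated BEC with a share of 5.45% (1.14 to 15.1), and the others held 1 to 12. In protocol A the intervals of D9 and D25 thus lay above those of D0 and D19. Among protocol B libraries the shares followed no order by day. The rule chose the cells by measured values, so these shares were not tested. When each cell was thinned to 1500 UMIs, 20.3% of gated BEC kept at least 1 UMI of Dmbt1 or Muc4. This thinned share was 7.71% in D0 A (5.68 to 10.2), 33.1% in D9 A, 30.7% in D25 A and 4.26% in STOP (2.22 to 7.32). The thinned intervals of D0 A and STOP overlap. The thinned share also asks for 1 UMI in place of 3, so the part of depth in these shares was not tested. These intervals cover counting error only.

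**Figure D1:**
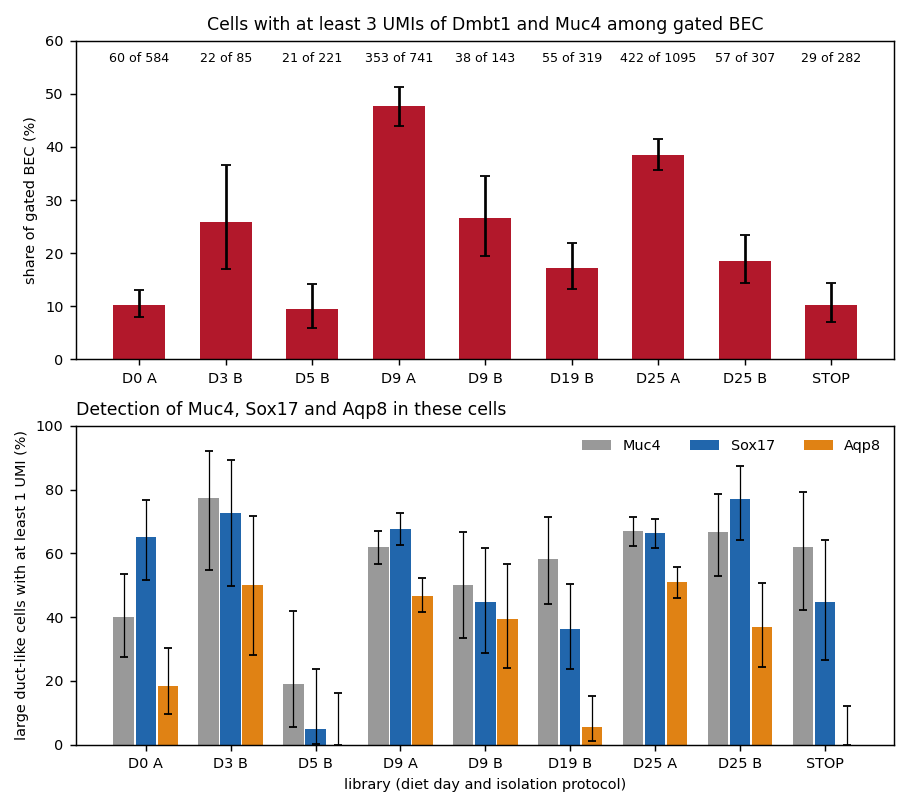
Upper panel, share of large duct-like cells among gated BEC (%) in each of the 9 libraries with at least 10 of them, with the numbers of cells above the bars. Lower panel, share of large duct-like cells (%) with at least 1 UMI of Muc4, Sox17 or Aqp8. Error bars are exact binomial 95% intervals, and D5 B stands out with Sox17 in 4.76% of its cells.

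The name of the cells was checked with Sox17 and Aqp8, which the rule did not read. Sox17 was detected in 65.0% of large duct-like cells of D0 A, 72.7% of D3 B, 67.7% of D9 A, 44.7% of D9 B, 36.4% of D19 B, 66.4% of D25 A and 77.2% of D25 B. Of the Dmbt1- Muc4- BEC, 5.28% had a UMI of Sox17, with the highest share, 13.4%, in STOP among the 9 libraries. T cells, which should lack it, had it in 0.702% to 3.52% of cells in the 7 libraries with over 400 T cells. In the other 6, with 22 to 65 T cells, the share was 0% to 13.6%, the latter being 3 of 22 cells of D9 A (exact interval 2.91 to 34.9). Median depths of T cells were 2461 to 7827 UMIs. Thinned to 1500 UMIs, Sox17 was found in 12.5% of large duct-like cells, 2.03% of Dmbt1- Muc4- BEC and 0 of 22 T cells of D9 A (which allows a share of up to 15.4%, exact interval), and in 14.2%, 0.159% and 2.56% of these cells in D25 A. Aqp8 was detected in 18.3% of large duct-like cells of D0 A, 50.0% of D3 B, 46.7% of D9 A, 39.5% of D9 B, 50.9% of D25 A and 36.8% of D25 B, against 0.415% of Dmbt1- Muc4- BEC. Cells with Aqp8 mostly had Sox17 too, 137 of 165 in D9 A and 176 of 215 in D25 A. The label went against the data in D5 B. Sox17 was found in 1 of its 21 cells and Muc4 in 4, and 17 of the 21 lacked Muc4, Sox17 and Aqp8, so that they were chosen on Dmbt1 alone. These cells are called BEC chosen by the rule where they are described alone. In STOP, Sox17 was found in 13 of 29 cells (44.8%). Aqp8 was found in no cell of D5 B or STOP, which allows up to 16.1% and 11.9% of cells with a UMI (exact intervals), and in 3 of 55 cells of D19 B. Since Aqp8 was captured in few cells of some libraries, these limits concern cells with a UMI and not cells that express it, and the name was not decided on them. The counts of identity calls are given with and without D5 B and STOP, and also without D5 B, D19 B and STOP.

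The choice of 3 UMIs cut a continuous range. Cells with exactly 3 UMIs of Dmbt1 and Muc4 (n = 54) had Sox17 in 64.8%, Aqp8 in 20.4% and Sox9 in 42.6%. Cells with 1 or 2 UMIs (n = 133), just outside, had them in 20.3%, 9.02% and 75.2%. Cells with none had Sox9 in 94.7%, and cells with 4 or more (n = 1009) in 55.2%. Of the genes in the rule, Dmbt1 lay between 398 (STOP) and 1913 (D3 B) TMM-scaled CPM in the sums of large duct-like cells (UMIs of the gene relative to all UMIs of the sum, adjusted for composition by edgeR's TMM factors). Muc4 averaged 80.9 ± 36.8 CPM (SD, n = 9 libraries). Krt19, the keratin of simple epithelia, averaged 3015 ± 599 CPM, against 1048 ± 337 in Dmbt1- Muc4- BEC. Krt7 was at 295 ± 61.1 against 318 ± 148, and Epcam at 1489 ± 532 against 1865 ± 528. These values describe the selection and were not tested.

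Depth limits what a library can show. Libraries held 29307190 to 108602421 UMIs in all. The summed large duct-like cells held 232753 UMIs in the smallest of the 9 libraries, D5 B, and 8395235 in the largest, and the median cell held 11548 UMIs in D5 B and 24438 in D3 B. In the Dmbt1- Muc4- BEC the medians ran from 8970 to 23550 UMIs. Scrublet, a doublet caller, marked 68 of the 1063 cells. Libraries shared at most 49 cell barcodes. A further 329 cells met every other condition but held Ptprc, and in STOP these were 35 of 64 cells, or 54.7%. In the other libraries compared the share ran from 4.76% (D0 A) to 40.6% (D9 B).

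The identity programme was described by setting large duct-like against Dmbt1- Muc4- BEC of the same library, with counts summed per library and kind of cell and the library as a block in edgeR's quasi-likelihood model. Because the cells were split on their own UMIs, this contrast is the one that chose them. Calls at an adjusted p of 0.05 are given as a description of how steadily a difference recurred over 9 libraries, and no p is given for single genes. Of 12730 genes, 2509 (19.7%) were called higher in large duct-like cells and 2717 (21.3%) lower, and the median log2 fold change over all genes was -0.05. Each library was left out in turn, and the direction of genes called in the others was compared with it. Called genes with few UMIs in the library left out were not counted, so that 4323 of 5394 entered for D5 B and 3709 of 5046 for D3 B. Between 74.3% (D5 B) and 96.6% (D25 A) of the genes counted had the same direction, with 83.3% in STOP and 86.4% in D19 B. Without D5 B and STOP together, 5282 genes were called, 4793 of them among the calls made with them. The 24 genes named below were all called in the same direction without both, and their log2 fold changes shifted by -0.42 (Ly6m) to 0.36 (Vsig2). Without D19 B as well, 5388 genes were called, 4694 of them shared, and all 24 kept their call and direction with shifts of -0.61 (Ly6m) to 0.38 (Ankrd1). For the gene lists below, counts without D5 B and STOP are given where they differ, and those without D19 B too where they differ by 2 or more from both. Every count is to be read against the shares of all genes. A gene can also pass the filter on low counts through 1 kind of cell alone and then had to differ. For 311 of the 12730 genes (2.44%) the median of the comparison was under 1 CPM while that of large duct-like cells was not. Besides those noted below, these included Pdx1, Ceacam1, Krt20, Gsta2, Slc7a11 and Hba-a2. The reverse held for 441 genes, among them 2 of the list of chemokines and cytokines. It also held for 1 gene of antigen presentation and 1 of tuft and enteroendocrine cells.

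The genes with the largest differences upward are described first. Lgals4, a galectin of the gut surface, was at 819 (D0 A) to 1620 CPM (D9 A) in large duct-like cells and 3.16 to 35.3 CPM in Dmbt1- Muc4- BEC, without overlap (log2 fold change 6.53 ± 0.23, SE, n = 9 libraries). Slc26a3, a chloride and bicarbonate exchanger, was at 4.28 (D5 B) to 713 CPM (D3 B) with a median of 251 against at most 3.68 CPM (log2 fold change 8.03 ± 0.30). S100g, a vitamin D-dependent calcium-binding protein, had a median of 228 and a highest value of 1254 CPM (D9 A) against 0 to 26.1 CPM, and D5 B at 17.1 CPM and D19 B at 18.99 CPM lay within the range of the comparison. Duox2, a dual oxidase that releases hydrogen peroxide at mucosal surfaces, lay at 43.6 (D3 B) to 354 CPM (STOP) against at most 3.41.

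Several of these genes are better known from other organs. Ctrb1, which encodes a chymotrypsinogen, was at 21.4 (D5 B) to 2856 CPM (D3 B) with a median of 903 against at most 11.2 CPM. Reg1, which encodes a secreted C-type lectin of the pancreas, had a median of 534 CPM, with 4.28 CPM in D5 B and 829 in STOP, against 0 to 5.51 CPM. Only D5 B overlapped the comparison for Reg1. The other genes that the rule named were Adgrg7 (log2 fold change 7.87 ± 0.30), Ly6m (7.57 ± 0.34), Phgr1 (7.06 ± 0.23), B4galnt2 (6.89 ± 0.31), Cyp2c65 (6.70 ± 0.23) and Vsig2 (6.63 ± 0.34). For each of these 6 the 9 large duct-like libraries lay above all 9 comparison libraries. B4galnt2 encodes a glycosyltransferase and Cyp2c65 a cytochrome P450 of the gut.

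The largest differences downward included a chemokine, a claudin and a growth factor. Rgs5, a regulator of G protein signalling that is also a marker of pericytes and stands in the list of mesenchymal markers, was at 0 (D3 B) to 188 CPM (D25 A) against 267 (D0 A) to 1453 CPM in Dmbt1- Muc4- BEC (log2 fold change -3.47 ± 0.42). Cxcl1, a neutrophil chemokine, was at 0 to 102 CPM against 241 to 1446 CPM (-3.35 ± 0.39). Cldn6, an embryonic claudin, was at 0 to 22.9 CPM against 57.4 to 119 CPM (-3.38 ± 0.22), and the growth factor Tgfb2 at 0 to 45.8 CPM against 110 to 188 CPM (-3.11 ± 0.37). These 4 did not overlap, nor did Fgg and Shisa4. Ankrd1, a YAP target, was lower within every library (-3.66 ± 0.60) but reached 136.4 CPM in D0 A, above the 135.5 CPM of the comparison in STOP. Alb (-3.04 ± 0.45), Fgb (-3.29 ± 0.49), Ltb (-3.02 ± 0.28), Cxcl2 (-3.48 ± 0.37) and Ddit4l (-3.18 ± 0.37) were lower in 9 of 9 libraries with overlapping ranges. The value of 0 in D3 B rests on 22 cells.

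**Figure D2:**
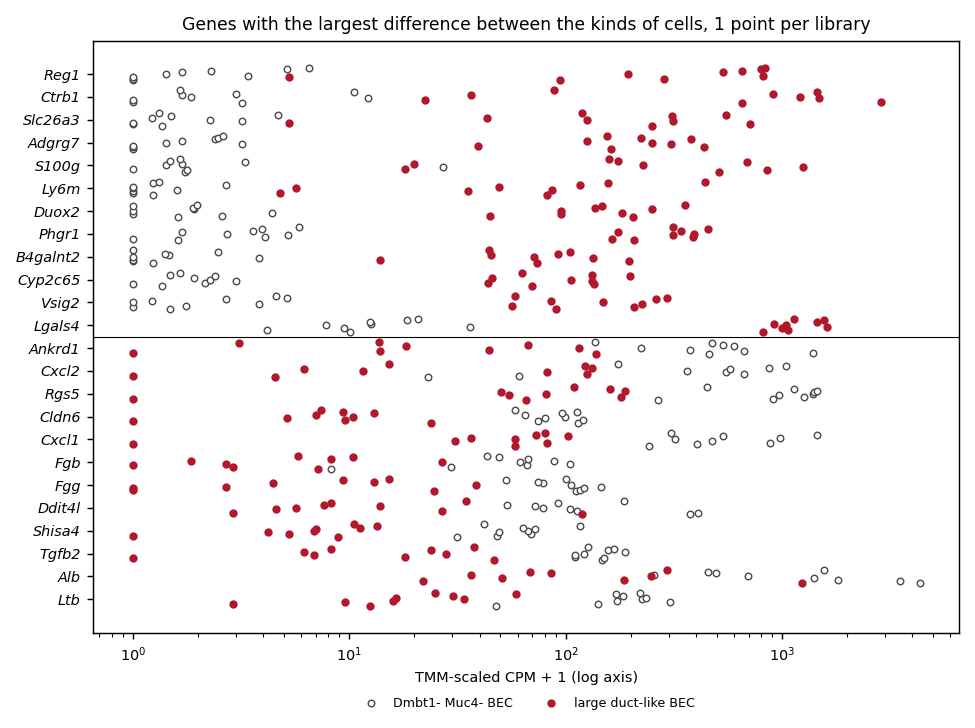
TMM-scaled CPM + 1 (log axis) of the 12 genes with the largest difference in each direction, 1 point per library and kind of cell, with genes higher in large duct-like BEC above the line. Lgals4 lies between 819 and 1620 CPM in all 9 large duct-like libraries, and the low points of Reg1 and Slc26a3, at 4.28 CPM, are D5 B.

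Sequence upstream of a gene higher in these cells is shown for Slc26a3, since its promoter window holds each of 3 motifs searched, and for Chil4, whose slope over diet days came closest to passing and whose highest level was in STOP. Windows of 300 bases around the start site (RefSeq, GRCm38.p6) were available for 10 of the 12 genes higher and 12 of the 12 lower. Motifs were searched on both strands as exact letters, and each motif was counted separately, whether or not it overlapped another: TATAAA, a core promoter element, AACAAT, the core bound by SOX factors, and GTTAAT, part of the site of HNF1 factors. A gene was counted if any of its windows matched, while the share given for all genes is per window. TATAAA was found in 4 of 10 genes higher (Cyp2c65, Reg1, S100g and Slc26a3) and 2 of 12 lower, against 13.6% of 32851 windows of all genes. The match of S100g did not lie within the 250 bases before its start site. AACAAT was found in 4 of 10 (Adgrg7, Cyp2c65, S100g and Slc26a3) and 0 of 12, against 10.7%. GTTAAT was found in 3 of 10 (Ctrb1, Duox2 and Slc26a3) and 2 of 12 (Alb and Fgb), against 7.10%. A match describes letters and is no evidence of binding. The stretches below are the 250 bases before the start site, 5′ to 3′ on the strand of the gene, at chr12:31437969-31438218 (+) for Slc26a3 and chr3:106219480-106219729 (-) for Chil4, with motif matches in capitals.
Slc26a3: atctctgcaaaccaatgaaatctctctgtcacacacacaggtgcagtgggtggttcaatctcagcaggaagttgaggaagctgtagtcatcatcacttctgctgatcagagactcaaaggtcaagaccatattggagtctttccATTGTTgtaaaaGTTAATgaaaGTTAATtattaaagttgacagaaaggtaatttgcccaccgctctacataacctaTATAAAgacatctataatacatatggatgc
Chil4: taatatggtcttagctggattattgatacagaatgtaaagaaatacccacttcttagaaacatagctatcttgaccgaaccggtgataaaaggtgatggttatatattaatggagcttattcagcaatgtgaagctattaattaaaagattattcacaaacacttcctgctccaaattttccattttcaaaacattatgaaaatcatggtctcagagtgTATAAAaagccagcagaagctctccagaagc

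Mucins and trefoil factors, which build and stabilise mucus, were listed with 16 members, of which 11 were tested and 5 had too few counts. Of the 11, 10 were called higher and 0 lower, with a median log2 fold change of 4.92 against -0.05 for all genes. For 5 of them (Agr2, Muc13, Muc3, Muc3a and Tff1) the comparison had a median under 1 CPM, so that the filter in part fixes this count and median. Muc1, a membrane mucin, had a median of 872 CPM over libraries (273 in D19 B to 1317 in D9 A) against 169 CPM. Fcgbp, a mucus-binding protein, was at 50.9 to 223 CPM against 2.14 to 8.75 CPM, without overlap. Tff3 was at 23.5 (D9 B) to 539 CPM (D0 A) against 1.39 to 8.82 CPM, and Tff2 at 195 to 1871 CPM (STOP) against 73.3 to 501 CPM. Muc3 (log2 fold change 8.51 ± 0.38) had a median of 96.7 CPM over the 9 libraries and was at 0 in D5 B. It shares sequence with Muc3a, so their counts may be split between them. Muc6, the gland mucin, did not pass, and Muc5b was seen with UMIs in 1 library of large duct-like cells.

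Of 19 tested members of mucosal defence 11 were higher (median 1.59), 6 of them with a comparison median under 1 CPM, and 5 lower, a share near the 21.3% of all genes. Pigr, the receptor that carries polymeric immunoglobulin into bile, had a median of 1268 CPM against 30.8 CPM, with its lowest value, 65.6 CPM, in D19 B. Ltf, lactoferrin, had a median of 44.9 CPM against 0.38, Nlrp6, an inflammasome sensor, 27.0 against 0.32, and Il18, an epithelial cytokine, 105 against 20.2. Wfdc2, an antiprotease, had a median of 1581 CPM against 706. The 5 lower were Cp, C3, Slpi, Lcn2 and Il33, and the call of Il33 (-0.70 ± 0.27) was lost without D5 B and STOP, where 11 of 17 were higher and 4 lower (median 2.29). Cp, ceruloplasmin, was at 13.3 (D3 B) to 766 CPM (D0 A) against 1187 to 2960 CPM, and C3 at 3.79 to 673 CPM against 717 to 2367 CPM, both without overlap. Slpi, a secreted antiprotease (-3.42 ± 0.23), and Lcn2, an iron-scavenging lipocalin (-1.79 ± 0.50), were lower with overlap. Lcn2 was lower in 8 of 9 libraries and higher in D0 A, the library without diet, at 959 against 260 CPM.

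Of 26 tested genes of secretion and transport, which modify bile, 19 were higher (median 1.46), against 19.7% of all genes. Another 4 were lower, a share near the 21.3% of all genes. For 3 tested members (Aqp8, Slc5a9 and Slc9a3) the comparison median was under 1 CPM. Aqp8, which was higher, had also served to check the name. The numbers were alike without D5 B and STOP, with the call of Abcc4 lost and Slc12a2 called lower. Slc4a4, a sodium bicarbonate cotransporter, had a median of 2414 CPM (317 in D5 B to 3916 in D25 A) against 111 to 270 CPM, without overlap (3.34 ± 0.30). The carbonic anhydrase Car9 was at 77.1 to 422 CPM against 0 to 12.0 CPM, also without overlap. Car2 had a median of 999 CPM and reached 3203 in STOP, against at most 422 CPM. Aqp1, a water channel, and Slc10a2, the apical bile acid uptake carrier, were higher by 1.97 ± 0.33 and 1.60 ± 0.26. Slc9a3, the apical sodium and proton exchanger, had a median of 122 CPM against 0.50 and was at 0 in D5 B. The 4 genes lower were Cftr, Sctr, Slc5a1 and Abcc4. Cftr, the chloride channel that drives secretin-stimulated secretion, was at 8.32 to 21.4 CPM against 34.7 to 120 CPM, and Sctr, the secretin receptor, at 0 to 6.91 CPM against 7.83 to 32.6 CPM, both without overlap. Slc5a1, a glucose cotransporter, was lower by 2.95 ± 0.29 on the log2 scale.

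Of 24 tested genes of junctions and the apical surface 13 were higher (median 0.43) and 6 lower, the latter a share near the 21.3% of all genes, or 7 without D5 B and STOP. Cldn2, a pore-forming claudin, had a median of 596 CPM against 194, and Ezr, which anchors microvilli, was at 514 to 1028 CPM against 304 to 494 CPM, without overlap. Lgals2, a galectin, was at 139 to 556 CPM against 6.00 to 42.9 CPM. F11r, a junctional adhesion molecule, was lower (-0.85 ± 0.13). Cdh1 was lower by 0.27 ± 0.09 on the log2 scale, a call lost in 5 alternatives. Of 5 tested keratins 1, Krt20, was higher (2.64 ± 0.66), a share near the 19.7% of all genes. Its comparison median was under 1 CPM. Its unscaled level was 62.8 CPM in STOP and 0 to 14.2 CPM in the other large duct-like libraries. Krt17 (-2.73 ± 0.53) and Krt23 (-1.29 ± 0.31) were lower, against 21.3% of all genes. Krt20, Krt17 and Krt23 each had overlap.

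Transcription factors of the biliary tree were called in both directions. Of 17 tested 5 were higher and 6 lower, against 19.7% and 21.3% of all genes, with a median of 0.04. Among the 5 higher were Sox17, which served to check the name, and Pdx1, whose comparison median was under 1 CPM. Without D5 B and STOP the call of Hhex was lost and 5 were lower. Sox17 was at 8.57 (D5 B) to 235 CPM (D25 B) against 2.37 to 14.6 CPM. Pdx1, the factor of pancreas and extrahepatic ducts, was at 4.16 to 30.2 CPM against 0.12 to 1.58 CPM, without overlap but at few UMIs. Klf5 was at 467 to 782 CPM against 103 to 241 CPM, and Elf3 at 17.1 to 49.3 CPM against 3.16 to 13.2 CPM, both without overlap. Sox9 was at 32.2 (D3 B) to 448 CPM (D0 A) against 505 to 1155 CPM, and Sox4 at 17.1 to 406 CPM against 483 to 1162 CPM, both without overlap. Prox1, a factor of hepatocytes and progenitors, was lower by 2.34 ± 0.28 on the log2 scale.

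Of 23 tested genes of small ducts and the ductular reaction 11 were lower and 8 not called (median -0.38), while the 4 higher were a share near the 19.7% of all genes, and without D5 B and STOP 11 were lower and 5 higher. Spp1 was at 2173 (D9 A) to 11400 CPM (D5 B) against 17886 to 32234 CPM, without overlap (-2.03 ± 0.22). The Notch ligand Jag1 was at 28.4 to 107 CPM against 170 to 343 CPM, without overlap, and the receptor Notch2 was lower by 1.39 ± 0.11 on the log2 scale. The 4 higher were Cd24a, Prom1, Vtcn1 and Tm4sf4. Prom1, a surface protein of progenitors that the list counts as a small duct gene, was at 199 (STOP) to 618 CPM (D19 B) against 106 to 217 CPM.

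Chemokines and cytokines were lower as a list, 15 of 22 against 2 higher (median -1.53), and 14 against 2 without D5 B and STOP (median -1.91). Tnf was at 0 to 12.1 CPM against 13.1 to 110 CPM and Il23a, a subunit of interleukin 23, at 0 to 9.69 CPM against 11.8 to 62.6 CPM, both without overlap. Higher were Cx3cl1, a membrane-bound chemokine (0.97 ± 0.16), and Vegfa (0.45 ± 0.16), whose call was lost in 9 alternatives and which was lower in large duct-like cells of D0 A (275 against 391 CPM) and STOP. D0 A also went the other way for 4 of the 15 called lower, Cxcl16 (143 against 99.0 CPM), Il1rn (57.2 against 11.52 CPM), Tnfsf10 and Tgfb1. Cxcl5, which did not pass, was at 441 CPM in large duct-like cells of D0 A against 9.92 CPM. Of 14 genes of antigen presentation 9 were lower and 0 higher (median -1.12). The class I genes H2-K1, at 362 to 908 CPM against 1314 to 1811 CPM, and H2-D1, at 397 to 736 CPM against 988 to 1572 CPM, did not overlap. H2 genes are near-identical copies, so their separate levels are uncertain. B2m (-1.62 ± 0.17) and Cd74, the invariant chain of class II (-1.57 ± 0.32), were lower with overlap.

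Of 28 tested genes of the NRF2 and xenobiotic response 16 were higher and 1, Abcg2, lower (median 0.80), and without D5 B and STOP 18 of 29 were higher. Gsta4, a glutathione transferase that clears lipid aldehydes, was at 416 (D0 A) to 2036 CPM (D25 B) against 29.5 to 171 CPM, without overlap (3.49 ± 0.13). Gclc, the rate-limiting enzyme of glutathione synthesis, had a median of 476 CPM against 83.0, and the carbonyl reductase Cbr3 was at 113 to 549 CPM against 27.4 to 88.6 CPM, without overlap. The metallothionein Mt1 had a median of 4975 CPM against 1502. Nqo1 and Hmox1, classical members, did not pass, with differences of 0.34 ± 0.54 and 0.61 ± 0.40. Gsta1 (5.02 ± 0.45) and Gsta2 are close copies, and reads may have been assigned to either.

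Cell cycle genes were lower in 7 of 20 and higher in 0 (median -0.20), the 7 being genes of DNA replication (Pcna, Mcm2, Mcm3, Mcm5 and Mcm6), Stmn1 and the inhibitor Cdkn1a. Without D5 B, D19 B and STOP 11 were lower (median -1.08), the 4 added being Cdk1, Ccna2, Tyms and Hmgb2. Mki67 and Top2a, marks of dividing cells, did not pass. In single cells, both Mki67 and Top2a were detected in 5.10% of large duct-like cells of D9 A against 17.4% of Dmbt1- Muc4- BEC, and in 4.74% against 9.55% in D25 A. D9 B and D25 B were also lower in large duct-like cells, while D5 B was nearly alike, at 2 of 21 cells against 21 of 195. In the other 4 libraries the share was higher in large duct-like cells, at 17 of 55 cells (30.9%) against 7 of 257 (2.72%) in D19 B, 3 of 60 against 8 of 514 in D0 A, 1 of 22 against 1 of 63 in D3 B and 3 of 29 against 3 of 246 in STOP. The libraries thus went in both directions. Of 17 immediate early genes 4 were higher, a share near the 19.7% of all genes, and 1, Ier3, lower (-1.70 ± 0.16). Without D5 B and STOP 3 were higher, and without D19 B too 6. Of 4 tested genes of tuft and enteroendocrine cells 0 were higher and 1, Sct, lower, or 2 lower without D5 B and STOP.

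**Figure D3:**
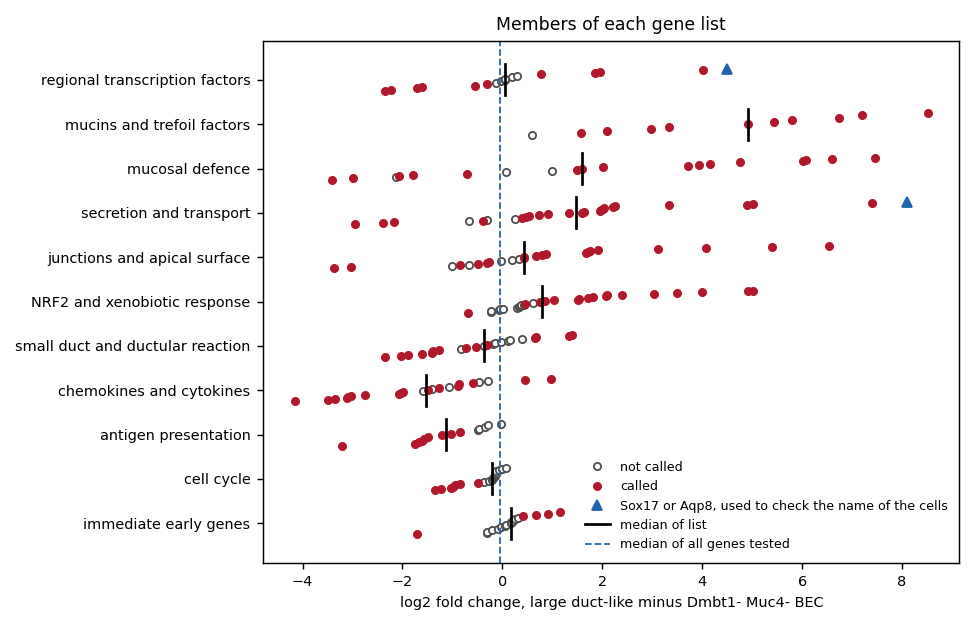
Log2 fold change of each tested member of 11 gene lists, large duct-like minus Dmbt1- Muc4- BEC. Filled red points were called at an adjusted p of 0.05 and open points were not, vertical bars are list medians, blue triangles are Sox17 and Aqp8, and the dashed line is the median of all 12730 genes. Mucins and trefoil factors have a median of 4.92, and chemokines and cytokines of -1.53.

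Markers of other cells were measured in the same sums. Of 12 tested hepatocyte markers 1, Ttr, was higher (1.12 ± 0.28) and 4 were lower. The list summed to 1594 (D25 A) to 3476 CPM (D0 A), against 1321 (D19 B) to 7043 CPM (D0 A) in Dmbt1- Muc4- BEC of the same libraries. In large duct-like cells Ttr alone was at 1307 CPM in D25 A and 1880.5 CPM in D0 A (unscaled). Cyp2e1 was at 0 in 4 of the 9 libraries. Of B cell markers 1, Cd79b, was tested and was higher (2.50 ± 0.44). Its comparison median was under 1 CPM, so that the filter in part fixes this call. The B cell list summed to 1.61 to 29.4 CPM against 0 to 2.89 CPM in Dmbt1- Muc4- BEC. Of 3 tested mesothelial markers 0 were higher and 1, Gpm6a, lower (-2.63 ± 0.26), or 3 of 5 lower without D5 B and STOP, with sums of 5.39 to 245 CPM. T cell markers summed to 0.65 to 107 CPM with 0 of 5 called. The list of myeloid markers (0 higher and 2 lower of 11) summed to 90.6 to 479 CPM in 8 libraries and to 2405 CPM in D3 B, where 736 of 745 UMIs of Lyz2 came from 1 cell. Of 8 tested mesenchymal markers 1, Reln, was higher (1.69 ± 0.27) and 1, Rgs5, lower. They summed to 23.3 to 221 CPM in 7 libraries, 1843 CPM in D25 B and 3596 CPM in STOP, against 492 to 1944 CPM in Dmbt1- Muc4- BEC, where Rgs5 alone was at 298 to 1549 CPM (unscaled). Without D5 B and STOP the median of the list was -1.33 in place of -0.39. In STOP 94.4% of the UMIs of Col1a1 lay in 1 cell. Endothelial markers (0 of 9 called) ran from 37.1 CPM in D25 B to 1041 CPM in STOP. Erythroid markers (2 of 4 higher) were at 298 CPM in D25 A, where 82.0% of the UMIs of Hbb-bs lay in 1 cell. The part of these cells' RNA in the values above was not tested.

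Within the large duct-like cells, some genes were shared by nearly all cells and others rested on few. Lgals4 was detected in 57 of 60 cells in D0 A, all 22 in D3 B, 350 of 353 in D9 A, 34 of 38 in D9 B, all 55 in D19 B, 409 of 422 in D25 A, 54 of 57 in D25 B and all 29 in STOP, but in 14 of 21 in D5 B. Ly6d, a lymphocyte antigen family member of epithelia, was in 89.5% to 98.6% of cells of 8 libraries and 52.4% in D5 B. Of the Dmbt1- Muc4- BEC of the same 9 libraries, Lgals4 was found in 5.37% to 16.0% and Ly6d in 3.89% to 44.1%, and of T cells Lgals4 in at most 5.13% and Ly6d in at most 23.1% (9 of 39 cells of D25 A). Ctrb1 varied from 12.7% in D19 B to 90.9% in D3 B among libraries other than D5 B. S100g was likewise at 12.7% in D19 B and at 95.5% in D3 B. Reg1 was found in 14.0% (D25 B) to 36.4% (D3 B) of cells outside D5 B. In Dmbt1- Muc4- BEC of these libraries S100g was found in at most 4.36% and Reg1 in at most 3.31%. At least 80.5% of its UMIs in each library came from the tenth of cells that held most, and in D25 B 673 of 771 UMIs came from 1 cell. A summed level of Reg1 therefore describes a minority of large duct-like cells.

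**Figure D4:**
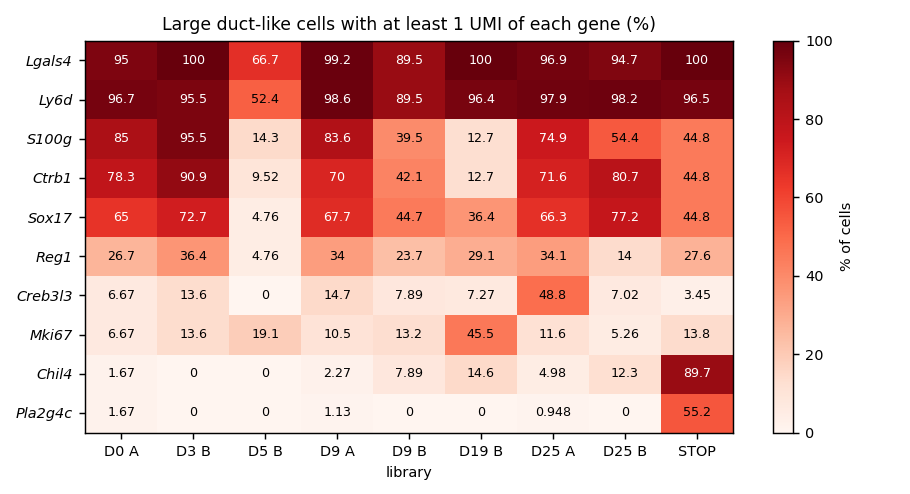
Share of large duct-like cells (%) with at least 1 UMI of each gene (rows) in each library (columns), darker red for higher shares. Lgals4 and Ly6d are near 100% outside D5 B, Reg1 stays between 14.0% and 36.4% there, and Chil4 is at 89.7% in STOP and at most 14.5% elsewhere.

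The change with days of diet asked how the large duct-like cells themselves responded. The slope over diet days was fitted by edgeR's quasi-likelihood test to the 8 atlas libraries with at least 10 cells, with isolation protocol as a term, and is given as log2 change per 10 days. None of 9490 genes passed at an adjusted p of 0.05 (0% higher and 0% lower), 444 had a p under 0.05 before adjustment, and 8 were called by DESeq2 (6 with positive and 2 with negative slopes). Without D5 B the count was 0 as well. The median slope over all genes was -0.01. With 1 library at D0 and no replicate within a day and protocol, a missing call does not show that a gene did not change.

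Chil4, a chitinase-like lectin associated with type 2 immunity, came closest. Its TMM-scaled CPM were 0.85 in D0 A, 0 in D3 B, 0 in D5 B, 24.5 in D9 A, 35.5 in D9 B, 325 in D19 B, 288 in D25 A and 473 in D25 B. The 3 libraries of D19 and D25 lay above the 5 of earlier days. The slope was 2.88 ± 0.33 (SE, n = 8 libraries, edgeR adjusted p = 0.0546, without D5 B 2.77, adjusted p = 0.164), and over the alternatives the adjusted p ran from 3.13e-56 to 0.9998. Few cells carried it. Chil4 was detected in 8 of 353 cells in D9 A, 3 of 38 in D9 B, 8 of 55 in D19 B, 21 of 422 in D25 A and 7 of 57 in D25 B. A single cell held 70.7% of its UMIs in D19 B and 55.1% in D25 B. Chil4 has a near-identical neighbour, Chil3, with which it can share reads.

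Among the other genes named for upward slopes were a pair of detoxification enzymes. Mgst3, a microsomal glutathione transferase, was at 118 CPM in D0 A, 250 in D3 B, 203 in D5 B, 249 in D9 A, 266 in D9 B, 484 in D19 B, 410 in D25 A and 443 in D25 B, with a slope of 0.60 ± 0.12 (edgeR adjusted p = 0.706). Akr1b8, an aldo-keto reductase, was at 68.0 CPM in D0 A, 145 in D3 B, 146 in D5 B, 245 in D9 A, 162 in D9 B, 322 in D19 B, 363 in D25 A and 302 in D25 B (0.71 ± 0.15, edgeR adjusted p = 0.799). For both, the libraries of D19 and D25 lay above all earlier ones. The NRF2 and xenobiotic list had 0 of 27 members called and a median slope of 0.17 against -0.01 for all genes, with 4 members at an unadjusted p under 0.05, all with positive slopes. Hbb-bs, a haemoglobin gene, had a slope of 1.59 ± 0.35 and came mostly from D25 A, at 159 CPM, and D9 A, at 51.3 CPM, where erythroid markers were highest. The other genes named for upward slopes, Emp3, Jaml, Fabp1, Rflnb, Tspan1 and Dgat2, had slopes of 0.48 to 1.40.

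The heat shock genes Hsph1 and Hsp90aa1 had downward slopes with their highest values in D0 A. Hsph1, a co-chaperone, was at 220 CPM in D0 A, 70.4 in D3 B, 17.2 in D5 B, 32.2 in D9 A, 14.4 in D9 B, 12.5 in D19 B, 22.8 in D25 A and 16.1 in D25 B (-1.09 ± 0.26, edgeR adjusted p = 0.946). Hsp90aa1, an inducible chaperone, was at 1005 CPM in D0 A and 161 to 413 CPM in the other 7 libraries (-0.55 ± 0.12, edgeR adjusted p = 0.799). Fam126b (-0.60 ± 0.14), Adgrg6 (-0.60 ± 0.14), Setbp1, Amotl2, Dusp8, Nedd4l, Ro60 and Zbtb18 were the others. Handling of the D0 A library and the absence of diet cannot be told apart. The gene lists gave 0 calls each. Among genes that differed with identity, slopes near 0 were found for Klf5 (-0.03 ± 0.10) and Muc1 (-0.02 ± 0.20). For Slc26a3 (0.01 ± 0.44) the SE was too wide to tell a change from none.

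**Figure D5:**
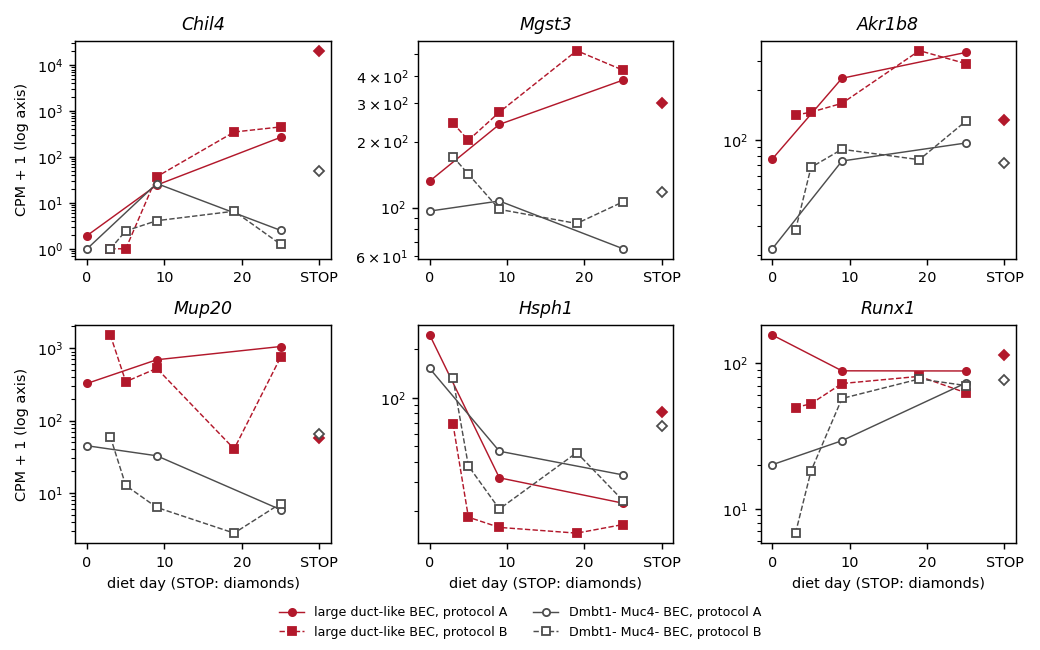
Unscaled CPM + 1 (log axis) of 6 genes by diet day, in large duct-like (filled) and Dmbt1- Muc4- BEC (open), with circles and solid lines for protocol A, squares and dashed lines for protocol B and diamonds for STOP. Chil4 in large duct-like cells is at or near 0 up to D5 and at 20794 CPM in STOP. Runx1 in Dmbt1- Muc4- BEC is at 19.1 CPM in D0 A, 5.80 in D3 B and 69.0 in D25 B.

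Whether the slopes differed between large duct-like and Dmbt1- Muc4- BEC was tested with both kinds of cell in 1 model, the library as a block and a term for kind by protocol. Of 12572 genes 3 had a higher slope in large duct-like cells (0.0239%) and 0 a lower one (0%), at edgeR adjusted p under 0.05. Before adjustment 701 genes had a p under 0.05, and DESeq2 called 30, with 16 higher and 14 lower slopes, of which Creb3l3 was the 1 also called by edgeR. In simulated data this fit made more false calls than its threshold allows, so its calls are weaker than the adjusted p states. The 3 genes were Chil4 (difference of slopes 4.32 ± 0.48 per 10 days, edgeR adjusted p = 0.0256), Acta2 (4.76 ± 0.47, edgeR adjusted p = 0.0256) and Creb3l3 (2.07 ± 0.28, edgeR adjusted p = 0.0488).

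The values behind these calls were uneven. Chil4 in Dmbt1- Muc4- BEC was at 0 in D0 A and D3 B, 1.52 CPM in D5 B, 24.4 in D9 A, 2.97 in D9 B, 5.04 in D19 B, 1.49 in D25 A and 0.24 in D25 B, so that the kinds of cell were alike in D9 A and apart at D19 and D25. Its call was lost with DESeq2, without D5 B, D9 A, D25 A or D25 B, and when members had to hold Sox17, which also leaves out D5 B. Over all alternatives the adjusted p ran from 5.95e-12 to 0.681 and the difference of slopes from 3.32 to 8.16. Acta2, smooth muscle actin, rested on 2, 27 and 9 UMIs in large duct-like cells of D9 A, D25 A and D25 B and none in the other 5 atlas libraries, and on 120 CPM in Dmbt1- Muc4- BEC of D9 A. Its call was lost without D5 B, D9 A (difference 2.06), D25 A or D25 B, with DESeq2 (0.14), without Scrublet doublets, and when members had to hold Sox17 or Muc4. Mesenchymal markers were at 1843 CPM in the D25 B cells and their part in this result was not tested. Creb3l3, a hepatic transcription factor of lipid metabolism, was at 92.3 CPM in D25 A and 0 to 16.5 CPM in the other 7 libraries, and was found in 206 of 422 cells of D25 A but 4 of 57 of D25 B. In Dmbt1- Muc4- BEC it was at 8.01 CPM in D0 A, 28.95 in D3 B, 6.45 in D5 B, 7.75 in D9 A, 3.39 in D9 B and 2.52 to 3.18 at D19 and D25. The summed hepatocyte markers of these comparison cells were at 7043 CPM in D0 A, 5824 in D3 B and 1321 to 1647 at D19 and D25, and their part in this result was not tested. Its call was lost without D0 A, D5 B, D9 A or D25 A, without Scrublet doublets, without the term for kind by protocol, and when members had to hold Sox17 or Muc4, while the difference stayed between 1.67 and 2.36 in all alternatives.

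The remaining genes named by the rule did not pass. Mgst3 came nearest to the threshold among them, and was at 84.5 CPM in D0 A, 160 in D3 B and 62.6 to 147 in later Dmbt1- Muc4- BEC (0.92 ± 0.14, edgeR adjusted p = 0.0618). Its difference passed in 5 alternatives, DESeq2 among them. Mup20, a major urinary protein with many copies, was at 37.6 (D19 B) to 1597 CPM (D3 B) in large duct-like cells and at 1.60 to 55.6 CPM in the comparison (1.52 ± 0.28, edgeR adjusted p = 0.186). Runx1, a transcription factor, was at 143 CPM in D0 A and 50.8 to 105 CPM in later large duct-like libraries. In Dmbt1- Muc4- BEC it was at 16.9 CPM in D0 A, 5.48 in D3 B, 17.8 in D5 B, 27.2 in D9 A, 53.8 in D9 B, 69.2 in D19 B, 70.5 in D25 A and 65.7 in D25 B (difference -0.94 ± 0.18, edgeR adjusted p = 0.213). Ahr, the aryl hydrocarbon receptor, was at 26.3 to 59.4 CPM in large duct-like cells and reached 149 CPM in Dmbt1- Muc4- BEC of D25 A (-0.73 ± 0.15, edgeR adjusted p = 0.295). Slc38a4 (0.71 ± 0.14), Pim1 (-0.73 ± 0.13), Cebpb (-0.51 ± 0.09) and Gprc5a (-0.81 ± 0.15) had edgeR adjusted p of 0.186 to 0.292.

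Recovery was described from the 29 large duct-like cells of STOP, 1 library without replicate, against D19 B and D25 B of the same protocol. Values are unscaled CPM with exact Poisson 95% intervals, which cover counting error only, and nothing was tested. Of 807 genes with at least 200 CPM in STOP or D19 B, 169 were higher in STOP than in both others and 66 lower, with separate intervals. The genes named were chosen after their values were seen. Chil4 was at 20794 CPM (20437 to 21156), against 350 in D19 B and 451 in D25 B, and at 47.5 CPM in Dmbt1- Muc4- BEC of STOP. It was found in 26 of the 29 cells with a median of 141 UMIs, and its highest cell held 18.1% of the UMIs. After thinning to 1500 UMIs it was found in 24 of 29 cells, while 1.66% of T cells of STOP had a UMI.

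Other genes higher in STOP were also spread over cells. Pla2g4c, a cytosolic phospholipase, was at 1001 CPM (924 to 1083) and in 16 of 29 cells, while D19 B and D25 B had none. AA467197 was at 2029 CPM against 43.1 and 82.3 and in 25 of 29 cells. Pigr was at 1527 CPM (1431 to 1627) against 68.3 in D19 B and 1103 in D25 B. The mesenchymal genes Col1a1, Col1a2, Col3a1, Dcn, Acta2 and Tagln were higher too, but 191 of 192 UMIs of Acta2 and 94.4% of those of Col1a1 came from 1 cell. Lower in STOP were Mmp7, a matrix metalloproteinase of injured epithelium, at 17.7 CPM (8.84 to 31.7) against 474 and 256, the metallothionein Mt2, at 138 CPM against 551 and 957, and Gsta1, at 57.9 CPM against 204 and 472. Nr4a1, Prom1, Cbr3, Rn7sk and Lars2 were lower as well. In Dmbt1- Muc4- BEC of STOP against D19 B, Mmp7 (200 against 846 CPM) and Mt2 (97.2 against 525 CPM) were lower too. So were Rn7sk (24.7 against 156 CPM) and Lars2 (87.1 against 500 CPM) there, but not Prom1 and Cbr3. Whether these differences are particular to large duct-like cells was not tested. No UMI of Aqp8 was found in the STOP cells. Of otherwise similar cells 54.7% were left out for Ptprc in STOP, 39.6% in D19 B and 39.4% in D25 B. The cells compared thus need not be of the same kind.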

How the data were processed

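Raw UMI counts per gene and barcode of 13 libraries were analysed as the authors deposited them, made with kallisto (version not given in the sources used here) on GRCm38 per the submitters' processing notes, neither normalized nor filtered. A barcode needed at least 1500 UMIs to count as a cell. Doublets were not removed, and Scrublet in scanpy 1.11.5 served as an alternative, with the expected doublet rate as threshold in every library. Its automatic threshold, which marked under 0.5% of cells in 10 libraries, was not used. Counts were summed per library and kind of cell (at least 10 cells) and tested in edgeR 4.0.16 (R 4.3.3) with TMM scaling, filterByExpr, the quasi-likelihood test and Benjamini-Hochberg adjustment at 0.05. The 6 genes of the rule stayed in library sizes and out of the tests. Standard errors are the log2 change divided by the square root of F. TMM-scaled CPM come from the fit of each comparison, so a gene's value can differ slightly between comparisons. Counts are of 3′ ends, so they were not divided by gene length.

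Identity was fitted to 9 libraries (STOP included) with the library as a block, diet days to 8 atlas libraries with isolation protocol as a term, and the difference of slopes with both kinds of cell. Replicate numbers stand for isolation protocols, so the protocol term is the replicate block. Named genes were the 12 largest log2 fold changes in each direction for identity, the 10 for days and 5 for the difference, among called genes whose mean log2 CPM reached 5 (by smallest p where too few were called), with the same sign in every library for identity, predicted, mitochondrial and ribosomal genes excluded, plus list members. Of these, 1 is not reported here. A T cell gate (at least 2 UMIs of Cd3e, 1 of Ptprc and none of Epcam) gave the background of detection. The members and gene lists were chosen with earlier results of these data known. Each fit was tested on simulated data, where the fit of the difference of slopes made more false calls than its threshold allows. Alternatives were DESeq2 1.42.0, no filter on low counts, stricter thresholds, Scrublet, thinning to 1500 UMIs, other terms and each library left out. Samples were grouped by the labels, and promoter windows came from RefSeq.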

Additional observations from a re-analysis of the deposited data

Results flagged for a closer look

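The change over diet days differed between large duct-like and Dmbt1- Muc4- BEC in 3 genes by the test of the difference itself (edgeR's quasi-likelihood interaction of kind of cell and diet day, 8 libraries). The difference of log2 slopes per 10 days was 4.32 for Chil4 (edgeR adjusted p = 0.0256), with higher levels in large duct-like cells in 3 of 3 libraries of D19 and D25. It was 4.76 for Acta2 (edgeR adjusted p = 0.0256), which rests on 2, 27 and 9 UMIs in the large duct-like cells of D9 A, D25 A and D25 B. It was 2.07 for Creb3l3 (edgeR adjusted p = 0.0488), with 646 UMIs in D25 A and at most 88 in any other atlas library. In simulated data this fit made more false calls than its threshold allows. With members that hold Sox17, which also left out D5 B (7 libraries), it called none of the 3. Leaving out D5 B alone gave 0 calls as well, so these changes cannot be told apart.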

How the results depend on the processing

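The number of genes called for identity was within 1.5 times of 5226 in all alternatives except thinning to 1500 UMIs, which gave 1880 of 6382 genes tested, 1786 of them called before thinning too. Leaving out a library gave 4180 to 5394. DESeq2 gave 5458 with 5138 shared and shifted the median of all genes by -0.01. Of 2187 alternatives for 96 named genes, 22 lost the call and none turned the direction. For diet days, where 0 genes were called, DESeq2 called 8, no filter on low counts 124 (71 higher and 53 lower), removal of Scrublet doublets 1, thinning 4, log2 of day plus 1 gave 2, protocol A alone 7, cells with Sox17 1, and leaving out a library 0 to 1. Without the replicate block, that is without isolation protocol, 1 gene was called. For the difference of slopes, where 3 genes were called, DESeq2 called 30, no filter 78 (33 higher and 45 lower), Scrublet 1, thinning 32, no term for kind by protocol 5, cells with Sox17 0, cells with Muc4 1, and leaving out a library 0 to 9. It gave 0 without D5 B or D9 A, 1 without D25 A, 6 without D3 B and 9 without D19 B. The cause of these changes was not tested. The share of large duct-like cells among gated BEC was 27.6%, and 20.3% by at least 1 UMI of Dmbt1 or Muc4 after thinning. The alternatives by Sox17 or Muc4, D5 B and STOP left out together, with and without D19 B, and the thinned share were chosen after seeing the data. With 21 to 60 cells in 7 of 9 libraries, genes at a few CPM rest on single UMIs.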

Other observations

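Spink4, a serine protease inhibitor of mucus-secreting cells, was chosen after its values were seen. It was detected in all 29 large duct-like cells of STOP with a median of 101 UMIs, in 349 of 353 cells of D9 A, 408 of 422 of D25 A, 45 of 55 of D19 B and 18 of 21 BEC chosen by the rule in D5 B, and thus also in most cells of D5 B, where Sox17 and Aqp8 were nearly absent. In Dmbt1- Muc4- BEC of STOP it was found in 47 of 246 cells. Its unscaled level in Dmbt1- Muc4- BEC was 47.5 CPM in STOP and ran from 8.83 (D9 B) to 85.5 CPM (D9 A) over libraries.

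Single cells carried genes of other cell types. All 110 UMIs of Chga, an enteroendocrine marker, came from 1 cell of D9 A, and the other 8 libraries had none. Of 235 UMIs of the gland mucin Muc6 in D25 A, 100 came from 1 cell. Dcn, a fibroblast gene, had 745 of 812 UMIs in 1 cell of D25 B and 280 of 358 in 1 cell of D25 A.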
